A study of Mus musculus with 6 samples.

Results

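The nuclear-encoded subunits of respiratory complexes II, III, IV and V and cytochrome c were examined in fetal mouse cortex after prenatal exposure to bisphenol A (BPA), a plastic monomer that can act on estrogen receptors. Members were taken by gene symbol alone: Sdha to Sdhd, Cyc1, Cycs, and symbols that continue Uqcr, Atp5 or Cox4 to Cox8 with letters or digits only. Symbols with a hyphen, such as Atp5k-ps2, were left out. The rule found 49 of the 45583 gene rows, comprising 4 genes of complex II, 9 of complex III, cytochrome c, 18 genes of complex IV and 17 of complex V. Cox7a2l (counted with complex IV), Atp5s and Atp5sl (both counted with complex V) match by name but are not core subunits. GENCODE lists Atp5sl as Dmac2. The 6 libraries came from the brain cortex of male fetuses at GD15.5 (gestational day), 3 from dams given BPA at 50 µg/kg and 3 from dams given vehicle (peanut oil, with ethanol per the study's methods), from GD10.5 to GD14.5. All 6 fetuses belonged to the Cyp19-EGFP strain, an aromatase reporter line on the FVBN background whose transgene carries EGFP at the start codon of Cyp19a1, and the labels give each the genotype WT and SRY +. The study's methods describe daily subcutaneous injections of the dams. The labels identify fetuses but not dams, so whether fetuses shared a litter was not tested, and p-values measure the spread between these fetuses only.

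Complex II (succinate dehydrogenase) passes electrons from succinate to ubiquinone. Complex III passes them on to cytochrome c, the mobile carrier in the space between the membranes, and complex IV (cytochrome c oxidase) hands them to oxygen. Complex V (ATP synthase) uses the proton gradient built by the chain to make ATP, on which growing neurons depend for axon growth and ion pumping. Complex II is encoded wholly in the nucleus, whereas complexes III, IV and V also hold subunits encoded in mitochondrial DNA. Nuclear respiratory factors, ETS factors and estrogen-related receptors are known regulators of many of the nuclear genes.

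Total counts per library ranged from 3444601 in BPA replicate 3 to 7180835 in vehicle replicate 2, and 3 counts corresponded to between 0.421 and 0.873 CPM (counts scaled to library size, with TMM factors). Spearman's rho across genes was between 0.987 and 0.993 for every pair of libraries, where genes are not independent replicates. Markers of the dorsal pallium and of neurons were present in every library. Of these, 3 of 12 dorsal and 5 of 6 neuronal markers were lower in BPA, with 0 at an unadjusted p under 0.05. All 10 markers of the ventral telencephalon were lower in BPA, 5 of them at an unadjusted p under 0.05, with a summed level between 1041 and 1196 CPM in vehicle and between 911 and 994 CPM in BPA. Choroid plexus markers summed to 237 CPM in vehicle replicate 2 and 372 CPM in BPA replicate 2, against 23.0 to 27.3 CPM in the other 4 libraries. Erythroid markers summed to between 285 and 597 CPM in vehicle and between 333 and 415 CPM in BPA. Muscle markers summed to at most 4.07 CPM in any library. Markers of pericytes and meninges summed to 206 CPM in vehicle replicate 3 and 183 CPM in BPA replicate 2, against 136 to 148 CPM in the other 4. Those were also the libraries with the highest scores for the members below. Within this list Col1a1, Col1a2, Col3a1, Dcn and Lum were highest in these libraries, with Col1a1 at 22.6 and 13.3 CPM against 2.05 to 5.48 CPM. For the pericyte genes Pdgfrb, Rgs5, Kcnj8 and Abcc9 these libraries were not apart from the other 4, with Pdgfrb at 39.3 and 34.0 CPM against 32.0 to 38.7 CPM. Whether these differences in tissue makeup had a part in the values of the respiratory genes was not tested. In bulk cortex, fewer cells of a type and less RNA per cell cannot be told apart.

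The promoters of the members that had the smallest p-values in the comparison below are shown as examples. That of Sdhd is shown as well, though its p-value was not among the smallest. Atp5g3 and Sdhd are the only members found with an estrogen-related receptor motif, so the examples do not show how often it occurs. RefSeq promoter windows of 300 bases (250 before and 50 after the start, GRCm38.p6) were matched for 38 of the 49 members. Each stretch below is read 5′ to 3′ on the gene's own strand and holds 120 bases that end before the more upstream of the RefSeq and GENCODE starts, with any motif searched in capitals. The stretches lie on the minus strand at chr2:73911327-73911446 (Atp5g3), chr7:30626152-30626271 (Cox6b1), chr9:79759879-79759998 (Cox7a2), chr13:86046905-86047024 (Cox7c) and chr9:50603850-50603969 (Sdhd).
Atp5g3: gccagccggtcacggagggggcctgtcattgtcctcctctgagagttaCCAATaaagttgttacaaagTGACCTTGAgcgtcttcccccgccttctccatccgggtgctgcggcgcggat
Cox6b1: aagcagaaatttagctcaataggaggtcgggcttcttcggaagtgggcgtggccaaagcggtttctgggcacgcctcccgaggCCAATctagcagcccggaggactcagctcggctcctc
Cox7a2: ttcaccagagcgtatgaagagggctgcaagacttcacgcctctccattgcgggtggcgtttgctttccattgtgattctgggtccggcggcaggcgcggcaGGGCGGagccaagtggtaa
Cox7c: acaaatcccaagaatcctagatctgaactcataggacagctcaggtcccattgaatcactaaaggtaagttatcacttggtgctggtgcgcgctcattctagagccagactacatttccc
Sdhd: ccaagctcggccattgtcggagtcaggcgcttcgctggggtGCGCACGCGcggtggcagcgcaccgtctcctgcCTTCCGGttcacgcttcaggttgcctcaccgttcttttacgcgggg
The capitals in Atp5g3 mark a CCAAT box and the reverse complement of an estrogen-related receptor motif. Those in Cox6b1 mark a CCAAT box, those in Cox7a2 a GC box, and those in Sdhd an NRF1 core and the reverse complement of an ETS core. The Cox7c stretch held none of the motifs searched, and neither did the rest of its window. Outside the printed stretches, the window of Atp5g3 also held an NRF1 core, and that of Cox6b1 an ETS core and further CCAAT boxes. The window of Sdhd also held an estrogen-related receptor motif and a GC box outside its stretch.

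The members' windows held the NRF1 core, the ETS core, the YY1, estrogen-related receptor and CCAAT motifs more often than the windows of genes tested. They held the GC box less often, and these shares were not tested. The 38 members with a window include some that were not tested for BPA. Among the tested members 10 held the NRF1 core and 22 did not. Motifs were searched on both strands of the whole window, and none of the motifs contains another. The NRF1 core (GCGCANGCG) was found in 13 of the 38 members (34.2%), against 1491 of the 9644 genes tested that had a window and 7.03% of all 27025 genes with one. The ETS core (CCGGAAG) was found in 12 members (31.6%), against 19.4% of genes tested and 9.93% of all genes. The YY1 motif (AAGATGGCG) was found in 3 members (7.89%), against 3.59% of genes tested and 1.64% of all. The estrogen-related receptor motif (TCAAGGTCA) was found in 2 members, Atp5g3 and Sdhd (5.26%), against 0.353% of genes tested and 0.466% of all. The GC box (GGGCGG) was found in 15 members (39.5%), against 71% of genes tested and 38.2% of all. The CCAAT box (CCAAT) was found in 22 members (57.9%), against 42.9% and 41.1%. A match describes the letters of a window and shows no binding.

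The levels of the members were compared per kilobase of exonic length, since longer transcripts give more fragments. The alpha and beta subunits of the F1 head of complex V, which form its catalytic ring, led the order. Atp5a1 averaged 214 CPM per kilobase ± 12.2 (SD, n = 6) and Atp5b 209 CPM per kilobase ± 11.9 (SD, n = 6), and their libraries overlapped. Complex IV followed with Cox6a1 (173 CPM per kilobase), Cox8a (134), Cox4i1 (116) and Cox6b1 (102). The highest member of complex III was Uqcr11 at 67.4 CPM per kilobase, and the highest of complex II was Sdhd at 46.3. Per kilobase of the longest transcript in place of all exons, Atp5b led with 463 before Atp5a1 with 251, Sdhb (64.7) and Sdha (57.4) passed Sdhd (46.3), and 8 of the 10 highest members were shared. Neighbors in this order mostly could not be separated, since the libraries of each ranked gene overlapped those of the next with 1 exception above the genes at 0, the step from Atp5sl (8.30 CPM per kilobase) to Uqcrb (5.19).

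Members with near-identical copies elsewhere had low levels for the most part, and other members were near or at 0 without such copies. Coding sequence was cut into 50-base words, the length of a read, and the share of words that also occur in exons of another gene was counted. The 26 members that shared no coding word had a median level of 27.4 CPM per kilobase, and the 14 that shared under 50% had a median of 35.0. The 9 that shared 50% or more had a median of 2.81 CPM per kilobase, and their highest was Cox7a2l at 41.4. Cytochrome c (Cycs), which shared 100% of its coding words, had 3 to 13 counts per library, whereas Cyc1 (cytochrome c1 of complex III), which shared 0%, averaged 49.8 CPM per kilobase. Atp5l (subunit g of complex V) shared 100% and had 0 to 2 counts. Whether the treatment of reads with several alignments had a part in these low levels was not tested.

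**Figure D1:**
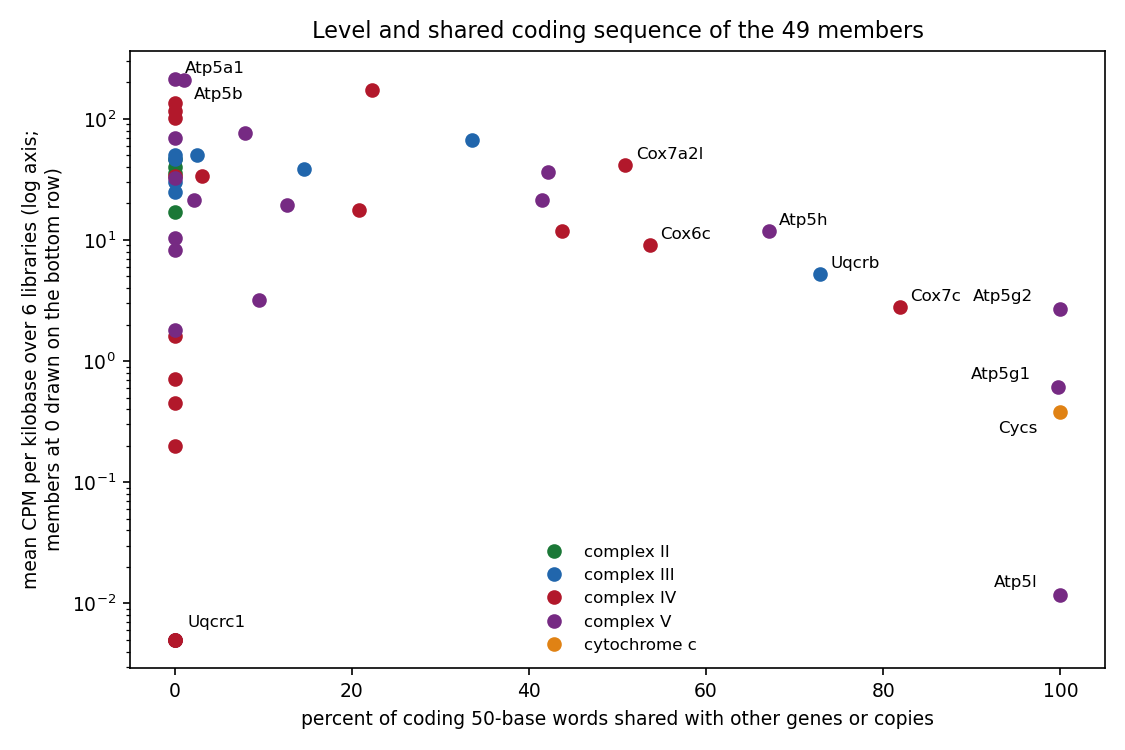
Mean level over 6 libraries (CPM per kilobase of exonic length, log axis) against the percent of coding 50-base words shared with other genes, 1 point per member, colored by complex. The 9 members at 50% or more lie between 0.0117 and 41.4 CPM per kilobase, and the 4 members at 0 counts, Uqcrc1 among them, are drawn together on the bottom row.

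Uqcrc1, a core subunit of complex III, was at 0 counts in every library although it shared 0% of its coding words and none of its exons overlapped another gene, and its partner Uqcrc2 averaged 50.4 CPM per kilobase. Whether this 0 measures expression was not tested, so no bound is given for it. The other members at 0 in every library were Cox7b2, Cox8b and Cox8c, which are known as isoforms of testis (Cox7b2 and Cox8c) and of heart and skeletal muscle (Cox8b). All 6 mitochondrially encoded subunits of complexes III, IV and V (mt-Cytb, mt-Co1, mt-Co2, mt-Co3, mt-Atp6 and mt-Atp8) were at 0, as were all 37 mitochondrially encoded rows, so the mitochondrial part of these complexes was not measured.

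No member differed between BPA and vehicle at the adjusted threshold. The test was edgeR's quasi-likelihood test with Benjamini-Hochberg adjustment over the 13741 genes tested, and 40 of the 49 members passed its filter on low counts. The count was 0 of 40 members at an adjusted p under 0.1, beside 0% of all genes tested, where no adjusted p was smaller than 0.2505. Below an unadjusted p of 0.05 were 3 members with lower levels in BPA (Atp5g3, Cox6b1 and Cox7a2), beside 1.18% of all genes tested (162 genes), and 1 was higher (Cox7c), beside 1.02% (140 genes). The adjusted p was 0.9998 for each of the 40. DESeq2, run as an alternative, placed 3 of the 40 at an unadjusted p under 0.05, beside 0.917% of all genes, and 0 under the adjusted threshold.

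The direction was more often lower than higher. Of the 40 tested members, 30 (75%) had a log2 fold change below 0, beside 49.5% of all genes tested. Their median log2 fold change was −0.063, against 0.0016 over all genes. The 3 BPA libraries lay wholly below the 3 vehicle libraries for 4 members (Atp5d, Atp5g3, Atp5s and Cox6b1), beside 3.57% of all genes tested, and wholly above for 1 (Cox7c), beside 3.19%. These counts moved with single libraries. Without BPA replicate 1 or without BPA replicate 3, 23 of 41 members (56.1%) were lower, with medians of −0.018 and −0.023, and without vehicle replicate 3 the count was 24 of 40 (60%) with a median of −0.025. The shares of all genes lower in these fits were 49.9%, 49.6% and 50.7%, in that order. Without BPA replicate 2, 36 of 41 (87.8%) were lower with a median of −0.19, beside 52.2% of all genes. Without vehicle replicate 1 the count was 30 of 40 with a median of −0.11, beside 49.2% of all genes. Without vehicle replicate 2 it was 29 of 41 with a median of −0.098, beside 49.1% of all genes. The medians of the complexes were lowest without BPA replicate 2, at −0.16 for complex II, −0.17 for III, −0.20 for IV and −0.18 for V. They were highest at −0.0053 for complex II and 0.0018 for IV without vehicle replicate 3, −0.0032 for III without BPA replicate 1 and −0.0034 for V without BPA replicate 3.

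The libraries varied within each group by more than the groups differed. A score was taken for each library as the mean, over the 40 tested members, of log2 CPM relative to each gene's own mean. It was −0.069, 0.042 and 0.13 in vehicle replicates 1 to 3 and −0.065, 0.15 and −0.19 in BPA replicates 1 to 3. BPA replicate 2 was the highest and BPA replicate 3 the lowest of the 6, so the groups overlapped fully. Of the 40 members, 17 had their lowest level in BPA replicate 3 and 14 in BPA replicate 1, whereas 15 had their highest level in vehicle replicate 3 and 13 in BPA replicate 2. The share of all counts taken by the 49 members was 0.364%, 0.374% and 0.409% in vehicle and 0.350%, 0.411% and 0.332% in BPA, which gives 0.382% ± 0.0240 (SD, n = 3) and 0.364% ± 0.0417 (SD, n = 3).

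The scores of complexes III, IV and V followed the same order at both ends, and complex II did not. BPA replicate 3 scored −0.21 for complex III, −0.26 for complex IV and −0.15 for complex V, the lowest of the 6 libraries each time, while complex II was lowest in BPA replicate 1 at −0.13. BPA replicate 2 scored 0.18, 0.19 and 0.12 for complexes III, IV and V, the highest each time, while complex II was highest in vehicle replicate 3 at 0.20. BPA replicate 3 was also the library with the fewest counts. The 678 genes tested with under 1000 bp of exonic length scored −0.053, 0.0041 and 0.10 in vehicle and −0.0076, 0.056 and −0.10 in BPA, lowest in BPA replicate 3 as for the members, but highest in vehicle replicate 3 where the members were highest in BPA replicate 2. The median exonic length was 1794 bp for the members and 4513 bp for the genes tested. The part of transcript length or of depth in the library scores was not tested.

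**Figure D2:**
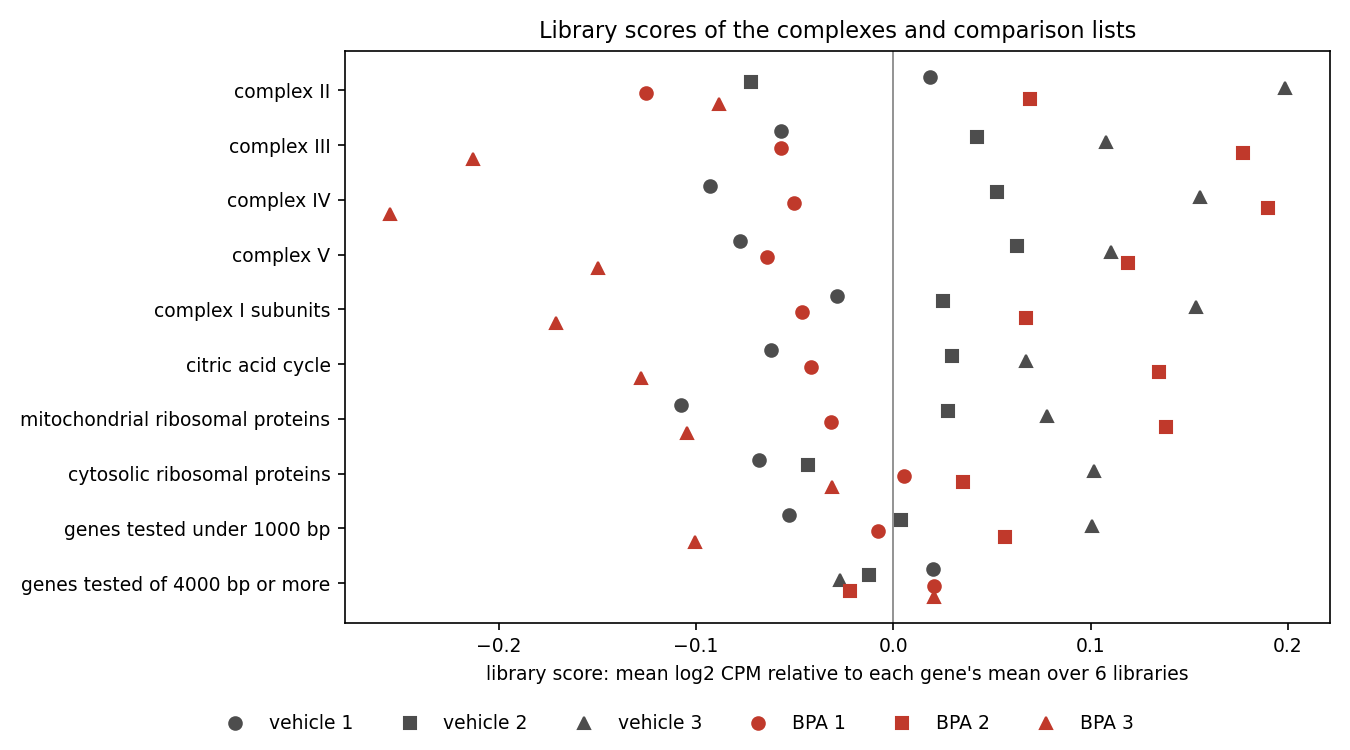
Library scores (mean log2 CPM relative to each gene's mean over 6 libraries, horizontal axis) for each complex, for comparison lists and for short and long genes; black symbols are vehicle and red symbols BPA, with circles, squares and triangles for replicates 1, 2 and 3. BPA replicate 3 lies at −0.26 and BPA replicate 2 at 0.19 for complex IV, with the vehicle libraries between them.

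In complex II, 3 of 4 subunits were lower in BPA, beside 49.5% of all genes tested, and none reached an unadjusted p of 0.05. The median log2 fold change was −0.099. Sdhb, the iron-sulfur subunit, stood at 73.3, 96.3 and 87.9 CPM in vehicle and 71.9, 87.3 and 61.7 CPM in BPA, which overlapped, with a log2 fold change of −0.21 ± 0.14 (SE). Sdhc, a membrane anchor that binds ubiquinone, stood at 64.1, 42.7 and 66.3 CPM in vehicle and 47.1, 55.6 and 55.6 CPM in BPA (log2 fold change −0.13 ± 0.15, SE). Here vehicle replicate 2 was the lowest of the 6 libraries. Sdhd, the other anchor, stood at 52.8, 50.7 and 72.2 CPM in vehicle and 49.8, 60.9 and 55.9 CPM in BPA (log2 fold change −0.070 ± 0.14, SE), and vehicle replicate 3 was the highest of the 6 libraries. Single libraries decided these values. Sdhb was under an unadjusted p of 0.05 without vehicle replicate 1 (−0.31) or BPA replicate 2 (−0.36), and its log2 fold change was −0.12 without vehicle replicate 2 and −0.11 without BPA replicate 3. Sdhc was under that value without vehicle replicate 2 (−0.31), and its log2 fold change was −0.022 without vehicle replicate 3. That of Sdhd was 0.099 without vehicle replicate 3. Sdha, the flavoprotein that oxidizes succinate, was the steadiest, at 166 CPM ± 6.54 in vehicle and 167 CPM ± 2.07 in BPA (SD, n = 3 each).

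In complex III, 5 of 8 tested subunits were lower in BPA, beside 49.5% of all genes tested. Their log2 fold changes had a median of −0.045, with none at an unadjusted p under 0.05. The catalytic subunits Cyc1 and Uqcrfs1 (the Rieske iron-sulfur protein) averaged 109 and 64.6 CPM in vehicle and 106 and 62.2 CPM in BPA. The members with the smallest unadjusted p in this complex were accessory subunits. Uqcr10 stood at 14.1, 14.7 and 18.7 CPM in vehicle and 11.6, 14.6 and 13.96 CPM in BPA (log2 fold change −0.24 ± 0.18, SE). Uqcrq, named for ubiquinone binding, stood at 51.2, 50.4 and 71.8 CPM in vehicle and 50.3, 57.4 and 47.1 CPM in BPA (log2 fold change −0.15 ± 0.14, SE). Uqcr11 stood at 35.8, 56.6 and 43.1 CPM in vehicle and 48.2, 47.0 and 28.5 CPM in BPA (log2 fold change −0.11 ± 0.19, SE). The groups overlapped for all 3, and the log2 fold change of Uqcr10 was −0.12 and that of Uqcrq 0.026 without vehicle replicate 3, while that of Uqcr11 was 0.10 without vehicle replicate 2. Uqcrh, the hinge protein, had the widest spread of the complex, from 23.0 CPM in BPA replicate 3 to 70.3 CPM in BPA replicate 2.

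Cytochrome c did not pass the filter on low counts. Cycs had 13, 9 and 9 counts in vehicle (1.91, 1.26 and 1.77 CPM) and 4, 8 and 3 counts in BPA (0.626, 1.30 and 0.873 CPM), so the groups overlapped by 1 library. When its counts were summed with those of its copies, a choice made after seeing the data, Cycs passed the filter and had an unadjusted p under 0.05, and the members below that value were then 5 of 41, beside 2.20% of all genes.

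Complex IV held 3 of the 4 members under an unadjusted p of 0.05, 2 lower (Cox6b1 and Cox7a2) and 1 higher (Cox7c). The share of all genes tested under that value was 2.20%. Of its 12 tested members, Cox7a2l among them, 9 were lower in BPA, beside 49.5% of all genes tested. The median of their log2 fold changes was −0.096. Cox6b1, which joins the monomers of the oxidase on the side of cytochrome c, stood at 70.4, 81.7 and 93.4 CPM in vehicle and 67.3, 64.3 and 57.0 CPM in BPA. The groups did not overlap, though vehicle replicate 1 and BPA replicate 1 were close. Its log2 fold change was −0.37 ± 0.12 (SE, adjusted p = 0.9998), and −0.27 without vehicle replicate 3, where its unadjusted p was no longer under 0.05. Cox7a2, the isoform of non-muscle tissue, stood at 35.9, 28.6 and 45.8 CPM in vehicle and 22.9, 33.4 and 25.6 CPM in BPA (log2 fold change −0.41 ± 0.18, SE, adjusted p = 0.9998). Its groups overlapped through vehicle replicate 2 and BPA replicate 2, and its unadjusted p was not under 0.05 when vehicle replicate 3 or either of BPA replicates 1 and 3 was left out. Its log2 fold change was −0.24 without vehicle replicate 3.

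Cox7c, a small membrane subunit, stood at 2.20, 1.97 and 3.15 CPM in vehicle and 4.54, 3.403 and 3.78 CPM in BPA, with the groups apart. These levels rest on 14 to 16 counts per vehicle library and 13 to 29 per BPA library, and 81.9% of its coding words occur in other genes. The log2 fold change was 0.71 ± 0.31 (SE, adjusted p = 0.9998). DESeq2 did not place it under an unadjusted p of 0.05, nor did the fits without vehicle replicate 1, vehicle replicate 2, BPA replicate 1 or BPA replicate 3. Cox5a, a matrix-side subunit, averaged 42.7 CPM ± 9.87 in vehicle and 32.1 CPM ± 10.3 in BPA (SD, n = 3 each), and Cox6a1 averaged 130 CPM ± 11.1 and 112 CPM ± 13.7. Both overlapped, and they were under an unadjusted p of 0.05 only without vehicle replicate 1 or BPA replicate 2, and Cox5a also without a filter on low counts. Cox4i1, Cox8a and Cox7a2l had log2 fold changes between −0.025 and 0.056.

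In complex V, 13 of 16 tested members were lower in BPA, beside 49.5% of all genes tested. Atp5s and Atp5sl, which are not core subunits, are counted among the 16. The median over the complex was −0.054 (log2 fold change), with 1 member at an unadjusted p under 0.05, beside 2.20% of all genes tested. That member was Atp5g3, which encodes subunit c, the membrane ring that turns as protons pass. It stood at 81.1, 82.5 and 82.6 CPM in vehicle, a range of under 2 CPM, and at 69.1, 59.0 and 51.5 CPM in BPA. The groups did not overlap. The means were 82.1 CPM ± 0.844 and 59.8 CPM ± 8.81 (SD, n = 3 each), and the fitted log2 fold change was −0.45 ± 0.12 (SE, adjusted p = 0.9998). Atp5g3 shared 0% of its coding words and had no overlapping gene, and it was under an unadjusted p of 0.05 in the main comparison and in all 15 alternatives, with log2 fold changes from −0.56 to −0.36 and no adjusted p below 0.315.

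The catalytic subunits of the F1 head were close between groups. Atp5a1 averaged 673 CPM ± 14.8 in vehicle and 668 CPM ± 58.6 in BPA, and Atp5b 901 CPM ± 34.2 and 873 CPM ± 67.7 (SD, n = 3 each). Atp5d, the delta subunit of the central stalk, stood at 131, 146 and 155 CPM in vehicle and 123.2, 129 and 121 CPM in BPA. Its groups did not overlap, but vehicle replicate 1 and BPA replicate 2 were within 2 CPM of each other, and the log2 fold change was −0.21 ± 0.10 (SE), under an unadjusted p of 0.05 only without vehicle replicate 1. Atp5s (factor B, a coupling factor rather than a core subunit) ranged from 3.93 to 4.52 CPM in vehicle and from 2.66 to 3.78 CPM in BPA, without overlap but on 13 to 28 counts (log2 fold change −0.40 ± 0.28, SE). Of the 6 tested members of the stator stalk and membrane part 5 were lower, beside 49.5% of all genes tested. Their log2 fold changes ran from −0.25 for Atp5k to 0.25 for Atp5j2. None was under an unadjusted p of 0.05 with all libraries, whereas Atp5k was without vehicle replicate 1 and Atp5f1 without BPA replicate 2.

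**Figure D3:**
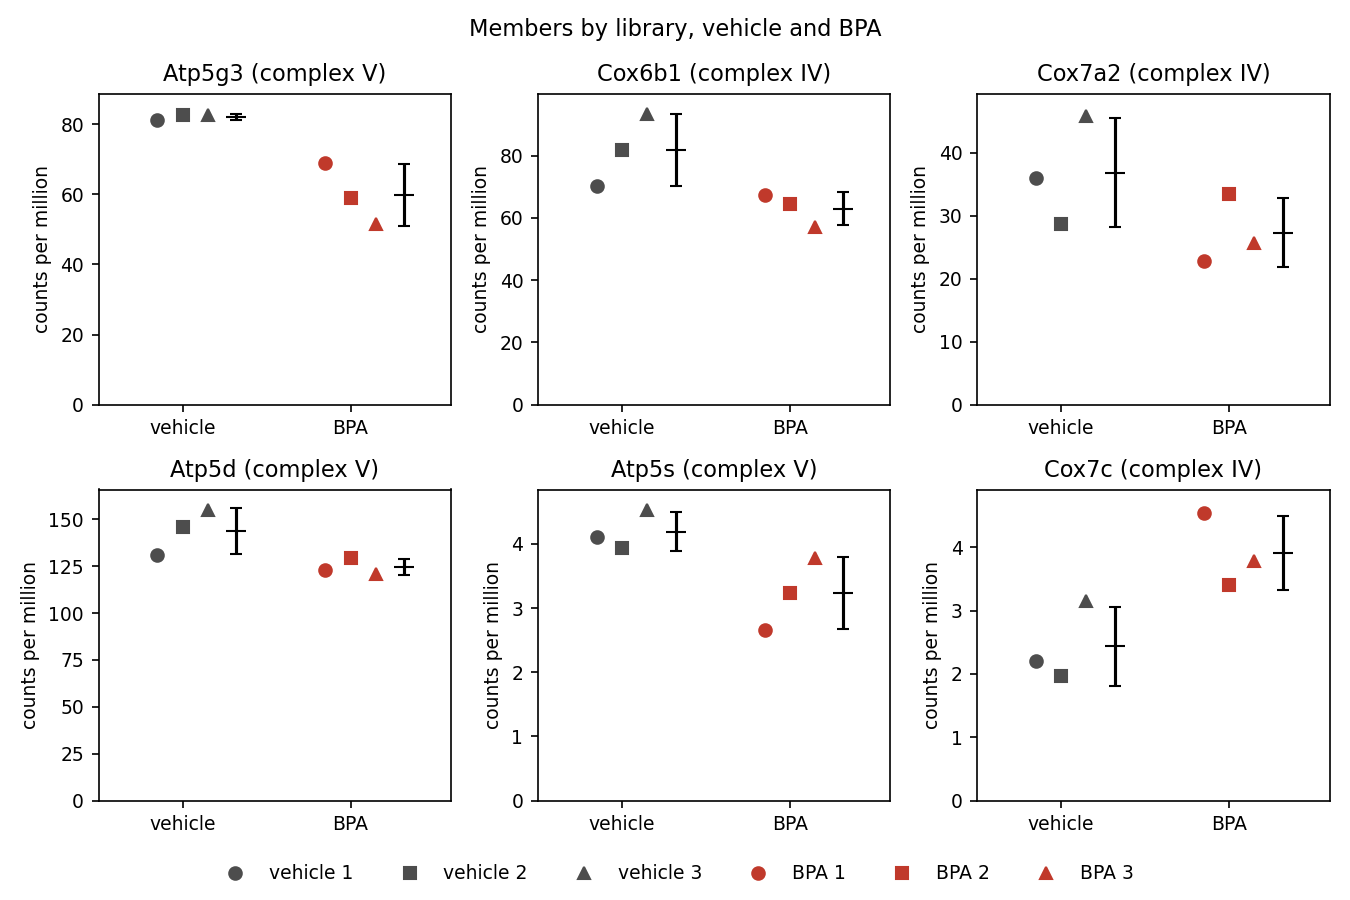
Level in CPM (vertical axes start at 0) of 6 members in the 3 vehicle (black) and 3 BPA (red) libraries, with the mean ± SD to the right of each group. Atp5g3 lies between 81.1 and 82.6 CPM in vehicle and between 51.5 and 69.1 CPM in BPA, Cox7a2 is the panel whose groups overlap, and Atp5s and Cox7c rest on under 30 counts per library.

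**Figure D4:**
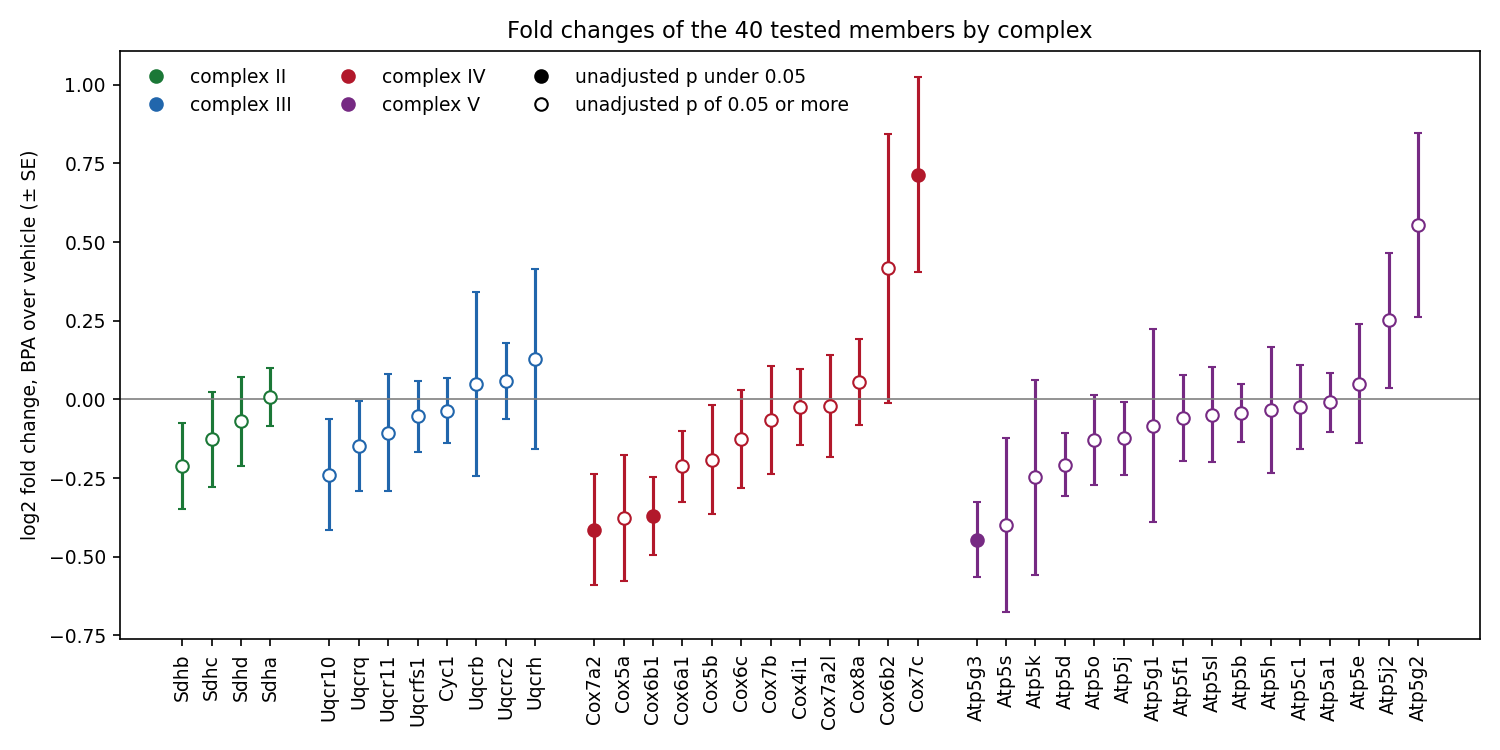
Log2 fold change of BPA over vehicle with its standard error for the 40 tested members, ordered within each complex; filled circles are members at an unadjusted p under 0.05. The values run from −0.45 (Atp5g3) to 0.71 (Cox7c), and 30 of the 40 lie below 0.

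The 3 subunit c genes encode the same mature subunit c and differ in their targeting peptides, so their shares within a library were compared, a measure that does not depend on library scaling. Atp5g3 held 94.5%, 91.2% and 93.9% of the subunit c level per kilobase in vehicle and 88.9%, 88.3% and 86.0% in BPA. Atp5g2 held 4.004%, 7.47% and 4.36% in vehicle and 9.72%, 9.79% and 11.4% in BPA. Neither share overlapped between groups. Exact permutation over libraries (two-sided) gave p = 0.1 for each, which is the smallest that 3 against 3 libraries allow, and 0.18 after Benjamini-Hochberg adjustment over the 9 shares tested. Atp5g1 held between 1.31% and 2.59% (exact p = 0.4). Atp5g2 rests on 15 to 37 counts, shares 100% of its coding words with copies, and had a log2 fold change of 0.55 ± 0.29 (SE), with 2.64, 5.19 and 2.95 CPM in vehicle and 5.79, 5.02 and 5.24 CPM in BPA. Its log2 fold change was 0.95 and under an unadjusted p of 0.05 without vehicle replicate 2, and limma-voom also placed it under that value. Atp5g1 shares 99.7% and averaged 3.05 CPM in vehicle and 2.92 CPM in BPA (log2 fold change −0.084 ± 0.31, SE), and its direction turned without vehicle replicate 3 (0.021) or BPA replicate 1 (0.062).

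The Cox7a family showed the other shares that did not overlap. Cox7a2 held 45.3%, 48.4% and 49.1% of the family level per kilobase in vehicle and 38.6%, 41.7% and 43.9% in BPA. Cox7a2l, a factor that joins complexes III and IV into supercomplexes, held 53.7%, 50.3% and 49.8% in vehicle and 61.4%, 58.3% and 56.1% in BPA. Cox7a1, the heart and skeletal muscle isoform, had 3 counts in each vehicle library and 0 in each BPA library, at or under the count that is treated as not detectable, so no fold is given. The exact p was 0.1 for these 3 shares as well, 0.18 after adjustment, and shares within a family sum to 100% and are not independent. Copies bear on both families. Of the coding words of Cox7a2l 50.9% occur in another gene, and the row of its copy held 182 to 592 counts per library, against 176 to 455 for Cox7a2l itself. The copy of Atp5g1 held 62 to 160 counts, against 12 to 20 for Atp5g1. When copies were summed with their members, a choice made after seeing the data, the Cox7a groups overlapped, with Cox7a2 at 31.7% ± 5.33 in vehicle and 25.8% ± 1.80 in BPA (SD, n = 3 each, exact permutation p = 0.2). The subunit c groups then still did not overlap for Atp5g3 (83.03% ± 0.932 and 77.3% ± 2.30) or Atp5g2 (4.78% ± 1.70 and 9.07% ± 0.860), with an exact permutation p of 0.1 for each.

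**Figure D5:**
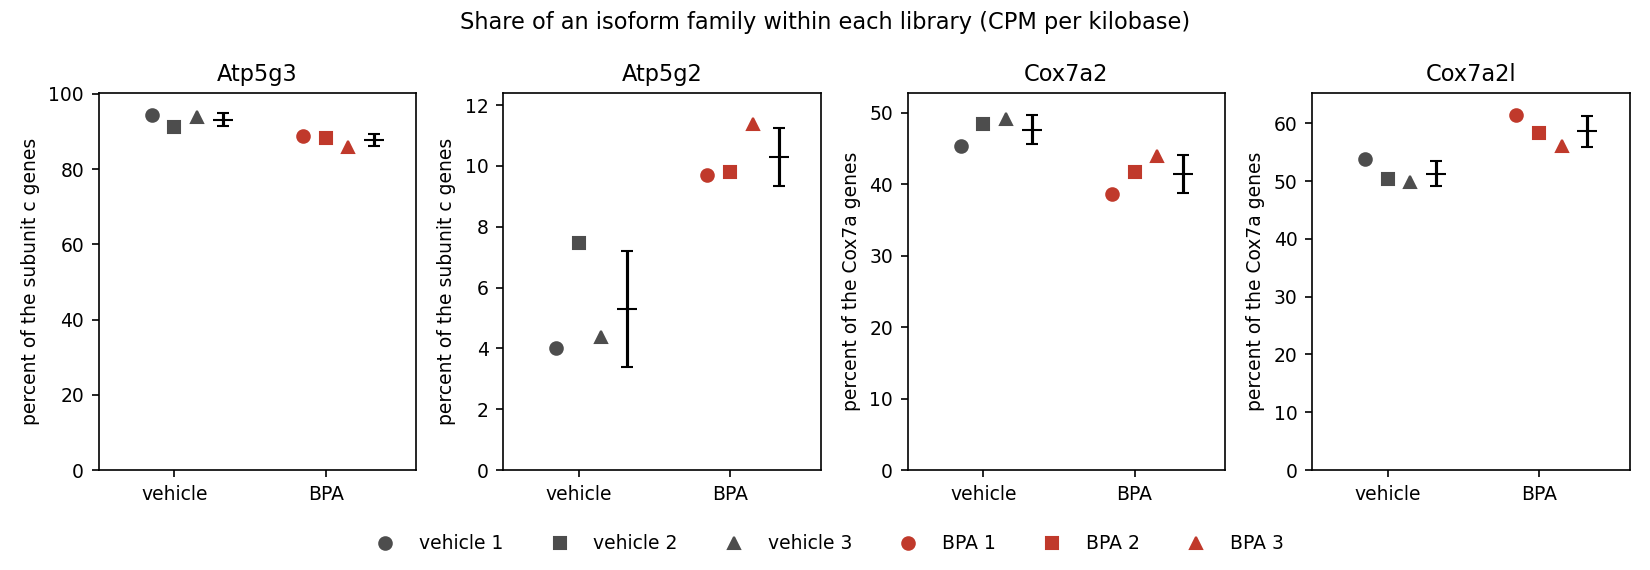
Percent of the isoform family's level (CPM per kilobase, vertical axes start at 0) held by Atp5g3 and Atp5g2 among the subunit c genes and by Cox7a2 and Cox7a2l among the Cox7a genes, per library, with the mean ± SD. In each panel the 3 vehicle libraries (black) and the 3 BPA libraries (red) do not overlap, with means of 93.2% and 87.7% for Atp5g3 and of 47.6% and 41.4% for Cox7a2.

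In the other families a single isoform took nearly all of the level in both groups. Cox4i1 held at least 98.96% in every library beside Cox4i2, the isoform known from lung, which had 1 to 5 counts. Cox6a1 held at least 99.71% beside Cox6a2, the muscle isoform, which had 0 or 1 count. Cox6b1 held 98.8% ± 0.653 in vehicle and 98.0% ± 0.689 in BPA (SD, n = 3 each) beside Cox6b2, the testis isoform, which stood at 1.47, 2.39 and 0.787 CPM in vehicle and 2.19, 2.76 and 1.16 CPM in BPA. Cox8a held 100% in every library. The exact p was 0.7 for the share of Cox4i2, 0.2 for Cox6a2 and 0.3 for Cox6b2.

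The other gene groups of mitochondrial energy metabolism had 0 genes at an adjusted p under 0.1. Complex I (NADH dehydrogenase) resembled the members in its counts, with 29 of 35 tested subunits lower in BPA, beside 49.5% of all genes tested. Its median log2 value was −0.064. At an unadjusted p under 0.05 was 1 subunit (Ndufa3, lower), beside 1.18% of all genes tested that were lower at that value. Among assembly factors of complexes II to V 18 of 34 were lower, with a median of −0.023 and none at an unadjusted p under 0.05. Cox14, which is needed for the synthesis of a mitochondrially encoded oxidase subunit, averaged 20.7 CPM ± 4.06 in vehicle and 16.2 CPM ± 1.16 in BPA (SD, n = 3 each) with a log2 fold change of −0.34 ± 0.17 (SE). Of 13 citric acid cycle enzymes 9 were lower, with a median of −0.042 and a range from −0.086 to 0.17.

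Regulators of nuclear respiratory genes were lower for 8 of 12 tested, beside 49.5% of all genes tested. Their median log2 fold change was −0.032, with none at an unadjusted p under 0.05. Nrf1 averaged 58.8 CPM in vehicle and 58.9 CPM in BPA, and Gabpa, an ETS factor, 88.0 and 88.3 CPM. Ppargc1a, a coactivator of mitochondrial biogenesis, averaged 16.6 CPM ± 2.71 in vehicle and 13.3 CPM ± 0.568 in BPA (SD, n = 3 each), with a log2 fold change of −0.31 ± 0.17 (SE). Mitochondrial ribosomal proteins split evenly, with 37 of 74 lower and a median of −0.0023, and cytosolic ribosomal proteins had 35 of 64 lower and a median of −0.014. At an unadjusted p under 0.05 were 2 of the 74 mitochondrial ribosomal genes, both higher (Mrpl23 and Mrpl33), and 1 of the 64 cytosolic, lower (Rplp2). The share of all genes tested under that value was 2.20%. Complex V subunits under other symbols gave 1 tested gene, 2010107E04Rik, with a log2 fold change of −0.23 ± 0.26 (SE).

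The count of lower members was read beside length and level. Of all genes tested, 54.3% were lower in BPA among those under 1000 bp, 57.9% from 1000 to 2000 bp, 51.8% from 2000 to 4000 bp and 46.6% at 4000 bp or more. The 8 members under 1000 bp had a median log2 fold change of −0.23, the 16 from 1000 to 2000 bp −0.029, the 12 from 2000 to 4000 bp −0.12 and the 4 at 4000 bp or more −0.052. The medians of all genes tested were −0.025, −0.036, −0.0067 and 0.0090 in the same order. The 16 members from 1000 to 2000 bp therefore did not lie below all genes of that length. Of the 34 members that averaged at least 10 CPM, 28 (82.4%) were lower, and 3 were under an unadjusted p of 0.05, all lower. Among the 10081 genes kept by a filter of 10 CPM in at least 3 libraries, 49.6% were lower. In that fit 1.61% of genes were under an unadjusted p of 0.05. Of the 19 tested members that shared no coding word 15 were lower (median −0.070), and of the 21 that shared some 15 were lower (median −0.060).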

How the data were processed

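Cortex of 6 fetal mice was analysed, 3 per group. The authors deposited raw read counts per gene symbol. According to the study's methods and the submitters' processing notes, single-end reads of 50 bases from strand-specific libraries were aligned with TopHat2 2.0.14 to GRCm38 and assembled with StringTie 1.2.4, and counted with featureCounts. The settings for strand and for multiply aligned reads are not given in the sources used here, and either choice can shift the counts of genes with copies or overlapping neighbors.

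Groups and age came from the labels (the study's results section gives a later age), and replicate numbers follow accession order. Members and lists were chosen with earlier results of these data known. Counts were filtered by filterByExpr (minimum count 10, minimum total 15) and scaled by TMM. They were tested by the quasi-likelihood test of edgeR 4.0.16 in R 4.3.3, without covariates, at a Benjamini-Hochberg adjusted p of 0.1. The fit was tested on simulated data with a common dispersion for all genes, which does not measure its power at the fold changes reported here. Library scores used a prior count of 2. DESeq2 1.42.0, limma-voom (limma 3.58.1), the likelihood ratio test, other scalings and filters, and omission of each library were alternatives. Summing of copies (genes elsewhere with at least 10% of a member's coding words) was added after seeing the data, for the fit and for the shares.

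The genes given library by library are the 3 members with the smallest p in each complex, cytochrome c, the subunit c genes, the isoform families and members whose groups did not overlap. Isoform shares were tested by exact permutation over the 20 assignments of libraries. Positions and lengths came from GENCODE M21, promoters from RefSeq. Totals of 3444601 to 7180835 counts limit precision, and floors of 3 counts cover counting error only.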

Additional observations from a re-analysis of the deposited data

How the results depend on the processing

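No member passed an adjusted p of 0.1 under any of the 15 alternatives. Over all genes the count, 0 in the main comparison, was 3 with DESeq2, 4 with the likelihood ratio test and 19 of 23501 genes without a filter, and 0 to 1 when single libraries were left out. Members at an unadjusted p under 0.05, 4 of 40 in the main comparison, were 2 to 9 when single libraries were left out. They were 2 without vehicle replicate 3 or either of BPA replicates 1 and 3, beside 1.39%, 1.40% and 2.26% of all genes. They were 8 without vehicle replicate 1 (2.48% of all genes), 5 without vehicle replicate 2 (5.10%) and 9 without BPA replicate 2 (4.02%). Left-out libraries turned the log2 fold change of Uqcr11 (−0.25 to 0.10, also 0.074 without BPA replicate 3), Atp5g1 (−0.20 to 0.062), Sdhd (−0.16 to 0.099) and Uqcrq (−0.24 to 0.026). The cause was not tested. With raw counts in place of counts per kilobase, the share difference was 0.963 percentage points for Atp5g1 and −0.493 for Cox7a1, by construction of the measure. With copies summed, chosen after seeing the data, these differences were 1.48 and −0.734, and the Cox7a2 and Cox7a2l shares overlapped between groups. The share difference of Cox4i2, 0.137 points, was −0.0385 without vehicle replicate 1 and −0.0517 without BPA replicate 3. With 1 library left out, a group of 2 libraries remains. No paired analysis was possible because the replicate numbers follow accession order and pair no fetuses. No fold is given for the 7 members at 3 counts or fewer in every library. Whether depth or the alignment of reads set these low counts was not tested. The 3 libraries per group limit an exact p to 0.1.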
